A study of Mus musculus with 4 samples.

Results

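The cadherin superfamily was followed in RNA of enteric neural crest-derived cells at 2 positions in the embryonic mouse gut. Members were the genes of the deposited table named Cdh plus a number or starting with Pcdh, together with the named Fat, Dachsous (Dchs) and Celsr genes, 1 row for each Entrez identifier. The rule gave 101 genes of the 27178 in the table, and 64 of them had at least 1 read. It used names alone and no measured value. Dchs2 was not analysed here.

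The cells came from the gut of Wnt1-tdT mice at 11.5 days post coitum. Wnt1 is active in the dorsal neural tube, where the neural crest arises, and the tdT reporter linked to it was used to find crest-derived cells. How the reporter is built is not stated in the labels, and it marks no state of migration. Tissue was dissociated with collagenase and dispase, and fluorescent cells were sorted by flow cytometry. The wavefront group (2 libraries) came from the leading edge of the cells invading the gut, and the trailing group (2 libraries) from cells 1 to 1.5 mm behind it. Both groups carried the same reporter and had the same age, and the labels give no treatment, sex or background strain. Whether the 2 replicates of a group are different embryos or litters is not stated either, so p-values cover the spread between libraries alone, and that spread may be technical.

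Cadherins are membrane proteins whose extracellular repeats bind calcium and, in the classical members, the same or a related cadherin on the next cell. The tail of classical cadherins binds catenins, which join the contact to actin. Protocadherins lack the catenin-binding tail, Fat and Dachsous proteins pair with each other between cells and feed into planar polarity and Hippo signalling, and Celsr proteins are the vertebrate Flamingo cadherins of planar polarity. Neural crest cells are known for changing their cadherins when they leave the neural tube, and contacts made by N-cadherin (Cdh2) have been studied in the chain-like migration of crest cells in the gut.

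Reads outside ribosomal RNA numbered 386540 and 330644 in trailing replicates 1 and 2, 452144 in wavefront replicate 1 and 114972 in wavefront replicate 2. Wavefront replicate 2 stood apart, with 55.5% of its reads from ribosomal RNA against 15.6 to 26.1% in the others, and with 111 reads of erythroid genes against 0 to 2. Listed mesothelium markers had 6 and 7 trailing reads, 6 in wavefront replicate 1 and 12 in the shallower wavefront replicate 2. Markers of enteric crest were read in every library (14 of 15 listed genes in at least 1 library, with S100b at 0). Of 11 crest markers tested, 2 were called lower and 0 higher at the wavefront (edgeR). The median log2 fold change of the 11, wavefront over trailing, was -0.29. Enteric neuron markers fell in 15 of 17 tested genes (edgeR), against 1.34% of all genes tested. Levels are given below as reads and as scaled CPM, which are CPM computed on library sizes adjusted by TMM factors. By this scale 1 read is worth 1.89 and 2.10 scaled CPM in trailing replicates 1 and 2 and 1.68 and 5.84 in wavefront replicates 1 and 2. Fewer cells of a type and less RNA per cell cannot be told apart in such bulk samples.

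Most of the family was at or near the detection limit. The 64 members with a read held 1855 reads in all, and 13 members with at least 20 reads held 89.2% of them. Cdh2, Cdh6 and Fat1 alone held 60.4%. A further 51 members had 1 to 19 reads, of which 30 had at most 3, and 37 had none. Reads of all members summed to 907 and 939 scaled CPM in trailing and 1182 and 1309 in wavefront libraries. Without Cdh11 the sums were 901 and 931 against 1087 and 1175. Both wavefront sums lay above both trailing sums on this scale, but not in the deposited CPM, where the 4 sums were 926, 991, 1296 and 861 (without Cdh11 921, 982, 1191 and 772), with wavefront replicate 2 the lowest. With 2 libraries against 2, an exact permutation test of such a sum cannot go below 0.333 (two-sided).

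**Figure D1:**
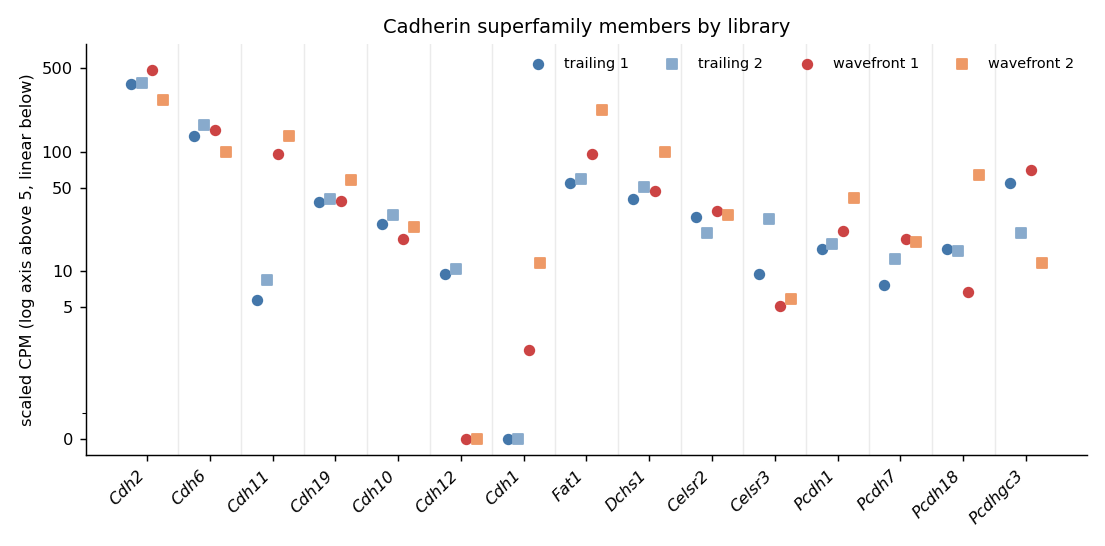
Scaled CPM (vertical, log axis above 5) of the 13 members with at least 20 reads and of Cdh12 and Cdh1, with 1 point per library. Cdh11 lies at 5.68 and 8.38 in trailing and 95.7 and 134 in wavefront libraries, while Cdh2 lies between 269 and 487 in all 4.

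Cdh11 and Fat1 rose at the wavefront and 0 members fell when whole reads were recovered from the CPM and tested with edgeR (quasi-likelihood, Benjamini-Hochberg adjustment), called the count test here. It could test 10 of the 101 members, those with enough reads. Among all 5759 genes it tested, 0.399% were called higher and 1.34% lower, 1.74% in all. Over the 10 members the log2 fold change (wavefront over trailing throughout) had a median of 0.39, against 0.01 over all genes tested. Of the 10, 8 lay above 0, and 6 with scaling by library size alone, which moved the median of all genes to -0.20. Both groups were apart, with no overlap, in 4 members higher at the wavefront (18.3% of all genes tested) and 1 lower (20.9%, or 39.1% in either direction). The test planned for values in CPM (limma, log2 of CPM + 1) made 0 calls among 45 members and 0 among 12519 genes (0.0%), with 5 members and 858 genes (6.85%) at an unadjusted p under 0.05. In limma the median of all genes was -0.35, so its fold changes are best read against that value, and the members' median was 0.13.

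**Figure D2:**
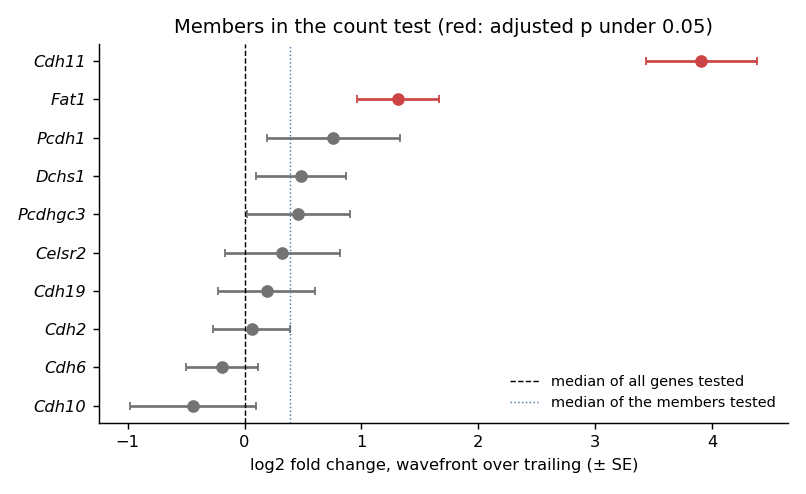
Log2 fold change, wavefront over trailing, of the 10 members in the count test, with bars of 1 SE; red marks an adjusted p under 0.05. Cdh11 at 3.91 and Fat1 at 1.32 are the 2 red points, and the other 8 lie between -0.44 and 0.76.

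The classical cadherins held 1212 of the family's 1855 reads. Of the type I genes, Cdh2 (N-cadherin, the main classical cadherin of neural and mesenchymal cells; chromosome 18, 16588877 to 16809246, GRCm38) had 196 and 178 trailing and 290 and 46 wavefront reads. That was 371 and 373 against 487 and 269 scaled CPM. Wavefront replicate 1 was the highest and wavefront replicate 2 the lowest of the 4, with both trailing libraries between them. The difference did not pass (log2 fold change 0.06 ± 0.33 SE, edgeR adjusted p = 0.975), and its sign turned when wavefront replicate 1 was left out (-0.47). In limma it was -0.33, close to the median of all genes there (-0.35). Per kilobase of annotated exon Cdh2 was the most abundant member described here in all 4 libraries, at 46.0 and 46.3 scaled CPM per kb against 60.4 and 33.3.

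Cdh1 (E-cadherin, the classical cadherin of epithelia; chromosome 8, 106603351 to 106670246) had 0 reads in both trailing libraries and 2 in each wavefront library. With 4 reads in all, the 95% exact counting interval of the ratio, wavefront over trailing, starts at 0.866, so a difference was not detectable at this depth. In limma Cdh1 had an unadjusted p of 0.0168 and an adjusted p of 0.68. The listed gut epithelium markers summed to 6 and 4 trailing and 22 and 10 wavefront reads, with 7 of 20 markers at 0 in every library. Their part in the Cdh1 reads was not tested. Epcam, a defining marker of gut epithelium, had 1 and 1 against 4 and 0 reads. Cdh3 (P-cadherin), picked after its values were seen, had 8 of its 9 reads in wavefront replicate 2.

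Among type II cadherins Cdh11 separated the positions. Cdh11 (known as OB-cadherin, a cadherin of mesenchymal and crest cells; chromosome 8, 102632095 to 102785642; 0 exon bases shared with other annotated genes) had 3 and 4 trailing and 57 and 23 wavefront reads. Its scaled CPM were 5.68 and 8.38 (mean 7.03 ± 1.91 SD, n = 2) behind the front and 95.7 and 134 (115 ± 27.3 SD, n = 2) at it. Both wavefront libraries lay far above both trailing ones, at 13.6 times the trailing mean in wavefront replicate 1 and 19.1 times in wavefront replicate 2. The log2 fold change was 3.91 ± 0.48 SE (edgeR's quasi-likelihood test, Benjamini-Hochberg adjusted p = 1.25e-07). The depth-adjusted ratio of summed reads was 15.0, with a 95% exact binomial counting interval of 6.95 to 38.5. The labels name no molecular identifiers, and such intervals hold for counting error alone. Cdh11 passed the filter on low counts through its wavefront libraries alone, and without that filter it also passed (edgeR adjusted p = 5.8e-12). In limma the log2 fold change was 3.57 ± 0.47 SE (adjusted p = 0.392).

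A share within 1 library does not depend on scaling between libraries. Cdh11 gave 0.946% (95% exact interval 0.196 to 2.74%) and 1.30% (0.356 to 3.30%) of the classical cadherin reads of trailing replicates 1 and 2. It gave 11.9% (9.18 to 15.2%) and 20.7% (13.6 to 29.5%) of those of wavefront replicates 1 and 2. The intervals of the wavefront libraries do not touch those of the trailing libraries. For Cdh2 the share was 61.8% and 58.0% behind the front, then 60.8% in wavefront replicate 1 against 41.4% (32.2 to 51.2%) in wavefront replicate 2, and that last library alone had a share whose interval lay below the others.

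**Figure D3:**
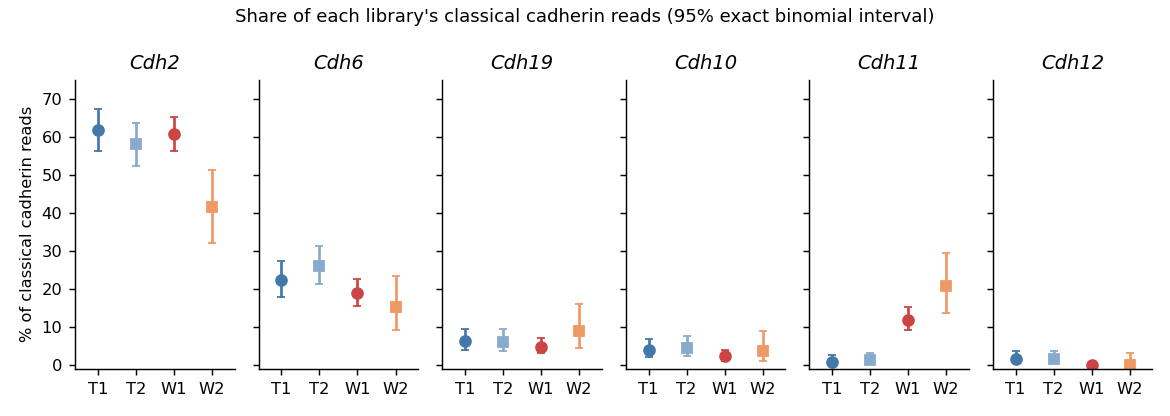
Percent of each library's classical cadherin reads that came from each of 6 genes (T1 and T2 trailing, W1 and W2 wavefront), with 95% exact binomial intervals. The Cdh11 share is 0.946 and 1.30% in T1 and T2 and 11.9 and 20.7% in W1 and W2, whereas the Cdh6, Cdh19 and Cdh10 intervals overlap between positions.

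Cdh11 is also a gene of gut mesenchyme, whose listed markers summed higher at the wavefront. The list of 20 markers summed to 92 and 82 trailing and 232 and 184 wavefront reads, or 174, 172, 390 and 1075 scaled CPM. Of its 3 tested genes 2, Des and Col3a1, rose (edgeR), against 0.399% of all genes tested. All 16 markers with a read were read in wavefront replicate 2, against 9 in each of the others, and Barx1, Myh11, Osr1 and Twist2 were at 0 in all libraries. In wavefront replicate 1 the list was 2.25 times its trailing mean and in wavefront replicate 2 it was 6.21 times. Cdh11 gave 3.26 and 4.88 (trailing) and 24.6 and 12.5 (wavefront) reads per 100 reads of the list. Des and Col3a1 gave most of the list's reads. Without them the list summed to 36.0 and 37.7 trailing and 45.3 and 467 wavefront scaled CPM. That was 19 and 18 against 27 and 80 reads, so the remainder rose mainly in wavefront replicate 2. Without wavefront replicate 2 the Cdh11 log2 fold change was 3.79 (edgeR), from a lone wavefront library whose spread is unknown. The part of mesenchymal RNA in the Cdh11 difference was not tested in either wavefront library.

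**Figure D4:**
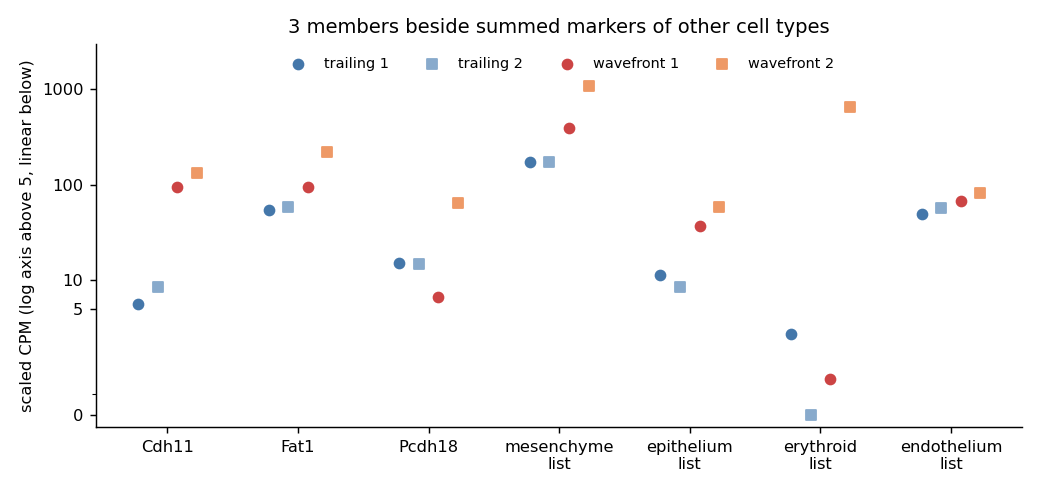
Scaled CPM (vertical, log axis above 5) of Cdh11, Fat1 and Pcdh18 beside the summed scaled CPM of 4 marker lists, with 1 point per library. The mesenchyme list lies at 174 and 172 in trailing and 390 and 1075 in wavefront libraries, and Cdh11 is also higher in both wavefront libraries. The erythroid list is high in wavefront replicate 2 alone.

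The other type II members in the count test did not pass it. Cdh6 (K-cadherin, known from premigratory and early migrating crest; chromosome 15, 13028701 to 13173675) had 71 and 80 trailing and 90 and 17 wavefront reads. Its scaled CPM of 134 and 168 overlapped with 151 and 99.3, and it did not pass (-0.19 ± 0.31 SE, edgeR adjusted p = 0.908). Cdh19 (a cadherin of crest-derived glia and Schwann cell precursors; chromosome 1, 110888326 to 110977584) had 20 and 19 reads against 23 and 10. Its scaled CPM were 37.9 and 39.8 against 38.6 and 58.4 (0.19 ± 0.42 SE, edgeR adjusted p = 0.938). Cdh10 (a type II cadherin of the nervous system; chromosome 15, 18818947 to 19014236) had 13 and 14 reads against 11 and 4, and did not pass (-0.44 ± 0.54 SE, edgeR adjusted p = 0.872). Its groups did not overlap on the scaled values (24.6 and 29.3 against 18.5 and 23.4), with trailing higher, as in 20.9% of all genes tested.

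Cdh12 (a type II cadherin of neurons; chromosome 15, 20449265 to 21589533) was read in trailing cells alone. It had 5 reads in each trailing library and 0 in each wavefront library. Cdh12 was named for having at least 6 reads at 1 position only, so its lopsided ratio followed from that choice. Neither that ratio nor an unadjusted p is support for a difference. Cdh12 was too low for the count test, and in limma its unadjusted p was 0.00359 and its adjusted p 0.68. Across the family 13 members had reads in the trailing libraries alone and 11 at the wavefront alone. Apart from Cdh12, none of these had more than 4 reads. Enteric neuron markers, lower at the wavefront as given above, summed to 4219 and 4569 trailing against 1307 and 1052 wavefront scaled CPM. Their part in the Cdh12 reads was not tested. Cdh5 (VE-cadherin, the defining cadherin of endothelium) had 0 and 2 trailing reads and 0 at the wavefront. The 14 listed endothelium markers summed to 26 and 27 trailing and 40 and 14 wavefront reads. Of these markers 8 were read in wavefront replicate 2, against 3 to 4 in the other libraries. The count test covered 2 of them and called 0, with 1 above 0. The endothelial receptor Kdr of this list had 9 and 11 against 15 and 5 reads. Cdh7, Cdh9, Cdh15 and Cdh22 had no read in any library.

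Per kilobase of annotated exon, Cdh11 stood lower than Cdh10 in trailing cells and higher at the wavefront. Among the classical cadherins of the count test, Cdh2 was followed in trailing cells by Cdh6 at 14.9 and 18.6 scaled CPM per kb and Cdh19 at 8.85 and 9.30, then Cdh10 at 2.45 and 2.92, with Cdh11 at 0.638 and 0.942. At the wavefront Cdh11 stood at 10.8 and 15.1, beside Cdh6 at 16.7 and 11.0 and Cdh19 at 9.03 and 13.7, while Cdh10 was at 1.84 and 2.33. The wavefront ranges of Cdh11, Cdh6 and Cdh19 overlapped, so these neighbours in the order do not differ beyond their spread between libraries.

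**Figure D5:**
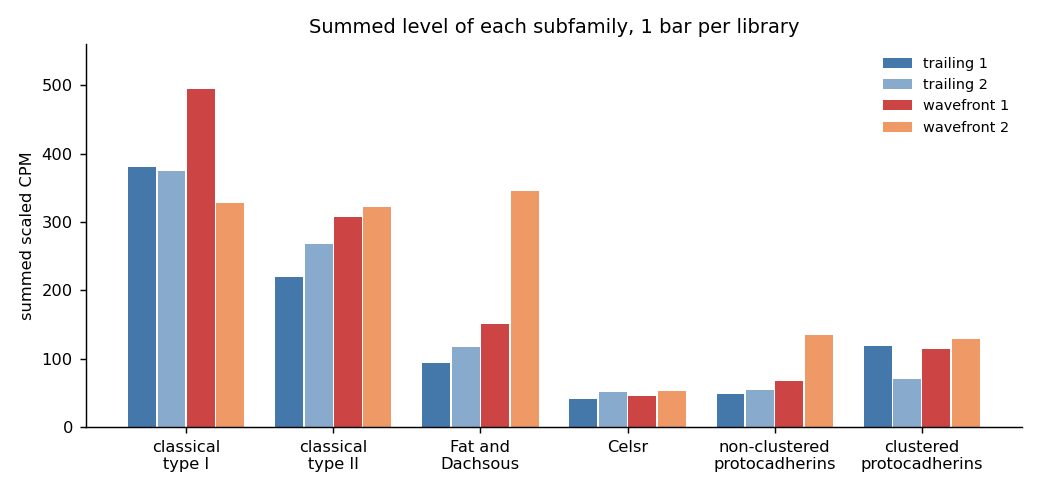
Summed scaled CPM of the members of 6 subfamilies, with 1 bar per library. Fat and Dachsous genes sum to 94.7 and 117 in trailing and 151 and 345 in wavefront libraries, while Celsr genes lie between 41.7 and 52.6 in all 4.

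Of the Fat and Dachsous genes, Fat1 rose in the count test. Fat1 (a giant atypical cadherin that acts on actin and cell polarity; chromosome 8, 44935447 to 45052257) had 29 and 28 trailing and 57 and 38 wavefront reads. That was 54.9 and 58.7 against 95.7 and 222 scaled CPM, or 56.8 ± 2.66 against 159 ± 89.3 (SD, n = 2 in both groups), a log2 fold change of 1.32 ± 0.35 SE (edgeR's quasi-likelihood test, Benjamini-Hochberg adjusted p = 0.0336). Both wavefront libraries lay above both trailing ones, and wavefront replicate 2 was the higher. In limma the adjusted p was 0.68. Other annotated genes cover 487 of its 15655 exon bases. Fat1 passed in 3 of 11 alternative settings of the count test. Without wavefront replicate 2 the log2 fold change was 0.80 (edgeR adjusted p = 0.325), without trailing replicate 1 or 2 the adjusted p was 0.346 and 0.282, and with scaling by library size alone it was 0.80. The adjusted p was 0.0756 with TMM factors computed without ribosomal RNA, 0.0888 with the replicate number as a block and 1.00 both in DESeq2 and with p-values taken from the authors' deposited table. Per 100 reads of the mesenchyme list, Fat1 had 31.5 and 34.1 (trailing) and 24.6 and 20.7 (wavefront). The part of mesenchymal RNA in the Fat1 difference was not tested.

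Dchs1 (which binds Fat4 between cells; chromosome 7, 105752990 to 105787654) had 21 and 24 trailing reads against 28 and 17. Its scaled CPM of 39.8 and 50.3 overlapped with 47.0 and 99.3, and it did not pass (0.48 ± 0.39 SE, edgeR adjusted p = 0.778). Within each library Fat1 gave 58.0% and 53.8% (trailing) and 67.1% and 69.1% (wavefront) of the reads of Fat1 and Dchs1 together. The 95% exact intervals overlapped, with 43.2 to 71.8% in trailing replicate 1 and 55.2 to 80.9% in wavefront replicate 2. Fat4 had 0 and 4 reads against 3 and 3, Fat3 had 0 and 0 against 2 and 1, and Fat2 had none.

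The Celsr genes were not called, and their sums lay between 41.7 and 52.6 scaled CPM in the 4 libraries. Celsr2 (chromosome 3, 108390851 to 108415552) had 15 and 10 reads against 19 and 5, at 28.4 and 21.0 against 31.9 and 29.2 scaled CPM (0.32 ± 0.49 SE, edgeR adjusted p = 0.905). Celsr3 (a planar polarity cadherin needed for axon tracts; chromosome 9, 108826320 to 108852969) had 5 and 13 trailing reads and 3 and 1 wavefront reads. Its groups did not overlap, at 9.47 and 27.2 against 5.04 and 5.84 scaled CPM, and the trailing libraries differed widely from each other. Groups lay apart with trailing higher in 20.9% of the genes of the count test. The pooled ratio, trailing over wavefront, was 3.43 (95% exact binomial counting interval 1.13 to 13.9). That interval holds for counting error alone and leaves out the spread between libraries. Celsr3 was too low for the count test, and in limma its adjusted p was 0.689. Celsr1 had 2 and 2 against 5 and 3 reads.

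Non-clustered protocadherins were read at low levels. Pcdh1 (a delta-1 protocadherin; chromosome 18, 38185914 to 38212053) had 8 and 8 trailing and 13 and 7 wavefront reads, 16.0 ± 1.14 against 31.4 ± 13.5 scaled CPM (SD, n = 2 each). It did not pass (0.76 ± 0.57 SE, edgeR adjusted p = 0.741). Pcdh7 (of the same class; chromosome 5, 57717967 to 58133230, with 2235 of 10604 exon bases shared with other annotated genes) had 4 and 6 against 11 and 3 reads, and its scaled CPM of 7.58 and 12.6 lay below 18.5 and 17.5, while in the deposited CPM the groups overlapped (7.74 and 13.3 against 20.3 and 11.5). Pcdh18 (a delta-2 protocadherin; chromosome 3, 49743296 to 49757325) had 8 and 7 reads against 4 and 11. The wavefront libraries fell on either side of the trailing ones, with 6.72 scaled CPM in replicate 1 and 64.3 in replicate 2. The latter library also had the highest ribosomal share and the highest erythroid and mesenchyme sums. Their part in the Pcdh18 values was not tested. Pcdh7 and Pcdh18 were too low for the count test, and in limma the adjusted p was 0.852 and 0.973. Pcdh8, Pcdh15, Pcdh19 and Pcdh20 had no read.

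The clustered protocadherins, whose isoforms are chosen neuron by neuron from gene arrays, were read mainly from the gamma cluster. All 58 lie in 3 arrays on chromosome 18. Of 14 alpha genes 4 had a read and of 22 beta genes 8 had a read, none with more than 2. Of 22 gamma genes 21 had a read, and together they held 172 reads. Pcdhgc3 (a C-type isoform that many cells express; 37806364 to 37841873) held 83 of these, with 29 and 10 trailing and 42 and 2 wavefront reads. Replicates differed within both groups, at 54.9 and 21.0 against 70.5 and 11.7 scaled CPM, and it did not pass (0.46 ± 0.44 SE, edgeR adjusted p = 0.831). Its sign turned when trailing replicate 2 (-0.09) or wavefront replicate 1 (-1.69) was left out. In limma it was -0.48, beside a median of -0.35 over all genes. Gamma genes share their last exons, and 3678 of the 5499 annotated exon bases of Pcdhgc3 also belong to another gene. The rule by which such reads were assigned is not given in the labels, so levels of single gamma genes are uncertain. The other 21 gamma genes summed to 53.0 and 44.0 against 38.6 and 99.3 scaled CPM, with wavefront replicate 2 the highest.

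The genes around cadherins showed no called change. Over 7 lists of catenins and junction adaptors, other superfamily genes, planar polarity, Hippo, cadherin processing, protocadherin promoter choice with the WAVE complex, and cadherin regulators, edgeR tested 50 of 108 genes and called 0, against 1.74% of all genes. At an unadjusted p under 0.05 there were 6 of the 50, against 9.9% of all genes tested. DESeq2 called 0 of 37, limma 0 of 88 (5 at an unadjusted p under 0.05), and the authors' deposited table, adjusted here, 0 of 95. Their median was 0.22, with 31 of 50 above 0, and 26 of 50 with scaling by library size alone.

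Among the catenins and adaptors, 12 of 19 were tested and 0 passed. Ctnna1, alpha-catenin, which links the complex to actin, had 131 and 113 trailing and 226 and 76 wavefront reads. Both wavefront libraries lay above both trailing ones, at 412 ± 45.6 against 242 ± 7.96 scaled CPM (SD, n = 2 in both groups), without passing (0.75 ± 0.32 SE, edgeR adjusted p = 0.38). Ctnnb1, beta-catenin, had 198 and 240 reads against 199 and 54, and lay lower at the wavefront (-0.43 ± 0.33 SE, edgeR adjusted p = 0.744). Of 16 planar polarity genes 4 were tested. Ptk7, a transmembrane pseudokinase of planar polarity, came nearest to the threshold, with 27 and 18 against 56 and 18 reads (1.12 ± 0.34 SE, edgeR adjusted p = 0.0825). Fzd3, a receptor that acts with Celsr proteins, had 43 and 50 against 56 and 16 reads (0.02 ± 0.32 SE, edgeR adjusted p = 0.996).

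The remaining lists also had 0 calls. Of 19 Hippo genes 12 were tested, with a median of 0.18, and Cyr61, a target of the pathway, had the most reads at 126 and 244 against 124 and 75. Of 10 cadherin processing genes 4 were tested, and Adam10, the protease that sheds N-cadherin, had 31 and 33 against 44 and 13 reads. Of 16 genes of protocadherin promoter choice and the WAVE complex 13 were tested, with a median of 0.04. The cohesin gene Smc1a had 83 and 70 against 118 and 37 reads (0.43 ± 0.30 SE, edgeR adjusted p = 0.708). Smc3, also of cohesin, had 79 and 83 against 98 and 26 reads. Of 10 regulators 4 were tested. Zeb2, a repressor of E-cadherin, had 48 and 41 trailing and 75 and 26 wavefront reads (0.61 ± 0.31 SE, edgeR adjusted p = 0.524). Zeb1, of the same family, had 12 and 13 against 4 and 3 (-1.38 ± 0.66 SE, edgeR adjusted p = 0.479). Twist1 and Twist2 of this list had no read. Outside the naming rule's family, Ret, whose extracellular part holds cadherin-like domains, did not pass (0.25 ± 0.41 SE, edgeR adjusted p = 0.908). Of the other 17 genes of that list, desmosomal cadherins among them, none was read deeply enough to be tested.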

How the data were processed

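RNA libraries were made with Nextera XT, per the labels' protocols. The submitters' processing notes name STAR 2.5.2b, featureCounts, DESeq2, bcl2fastq 2.17 and FastQC 0.11.9, with builds GRCm38 and mm10. Strand and overlap settings are not stated there. The deposited unit, per the file headers, is CPM in each library, and the CPM total covers every row, 428 repeats of an identifier included. Values of all 27606 rows were whole multiples of the CPM of 1 read (100% within 0.01 reads), so whole reads were recovered; repeated identifiers were kept once. The deposited BaseMean is a mean normalized signal. The deposited fold change is on the log2 scale, its standard error and Wald statistic are deposited scores, and the deposited p-value was adjusted here.

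Fits ran on all genes, location as the only term: limma 3.58.1 on log2(CPM + 1), as the unit asks, where the average CPM passed 1, and edgeR 4.0.16 on recovered reads (TMM, filterByExpr with 10 reads), beside DESeq2 1.42.0, under R 4.3.3. The threshold was a Benjamini-Hochberg adjusted p of 0.05, two-sided. edgeR standard errors are the fold change divided by the root of F. Scripts were tested on simulated data. Exon lengths and coordinates are GENCODE M21's, on the same build, matched for all 101 members by Ensembl identifier. Members with at least 20 reads were named, with Cdh1, Cdh5 and any member of at least 6 reads at 1 position only, and the most read or called genes of each list. Members and lists were chosen with earlier results of these data known.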

Additional observations from a re-analysis of the deposited data

How the results depend on the processing

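Cdh11 kept its direction and passed in 11 of 11 alternative settings of the count test (largest adjusted p 0.000936), with log2 fold changes of 3.68 to 4.21 in the refits and 2.30 in the authors' deposited table. In the count test 1 member, in place of 2, was called with library size alone, with TMM without ribosomal RNA, with the replicate block, in DESeq2 and by the authors' p-values, and 1 to 2 with 1 library left out. Over all genes the count test called 100, and 61 with the replicate block, 15 in DESeq2, 13 by the authors' p-values and 40 to 143 with 1 library left out. Limma, with 0 calls, gave 3 with a pseudocount of 5, 5 without a filter, 36 above a mean CPM of 10, 3 with TMM-rescaled CPM, 4 on totals without ribosomal RNA, 52 with the replicate block and 0 with any 1 library left out. Of members it called 1 (Cdh11) above a mean CPM of 10 and 1 (Cdh11) with the block, while edgeR on the recovered reads called 2 members and 100 genes.

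Same-numbered libraries shared only a number (correlation of their deviations 0.0589 across genes), so the block is no paired design. Some members that did not pass changed sign against the count test. In limma these were Cdh2 (-0.33) and Pcdhgc3 (-0.48), where the median of all genes was -0.35. With library size alone they were Cdh2 (-0.12) and Cdh19 (-0.0032), where that median was -0.20. Both sets of signs are best read against those medians. With 1 library left out, Cdh2 ranged from -0.47 to 0.44, Cdh6 from -0.60 to 0.057 and Pcdhgc3 from -1.69 to 1.30. The cause was not tested. Depth limits most of the family: 91 of the members were too low for the count test.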
